A study of Mus musculus with 36 samples.

Results

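The insulin receptor, the adaptors and kinases that carry its signal, the FOXO transcription factors at its end and the insulin-responsive glucose transporter were followed through 2 mouse tissues on 3 diets. The genes are Insr, Irs1, Irs2, Pik3r1, Akt1, Akt2, Foxo1, Foxo3, Slc2a4 and Trib3. They were read by symbol, and all 10, of 16060 genes in any of the 6 deposited gene tables, passed the authors' filter on low values in every table. The study is bulk RNA sequencing of C57BL/6J mice kept for 16 weeks on 1 of 3 diets. The control mice were fed ad libitum (AL), a second group was calorie-restricted (CR), and the remaining group was time-restricted without calorie restriction (TR, written TR.al in the labels). Liver and inguinal white adipose tissue (iWAT, fat under the skin of the groin) gave 6 libraries for each diet and tissue, 36 in all, from 20 mice. The comparison of CR with TR bears on the study's stated question of how far fasting without fewer calories gives the transcriptional response to calorie restriction. The mice carried no labelled transgene or mutation, and neither sex, age at the start, hour of sampling nor size of the restriction is given in the labels.

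Insulin binds its receptor, a tyrosine kinase encoded by Insr, which phosphorylates the adaptor proteins encoded by Irs1 and Irs2. These recruit phosphatidylinositol 3-kinase (PI3K), whose main regulatory subunit is encoded by Pik3r1, and the lipid it makes brings the kinases AKT1 and AKT2 to the membrane, where they are activated. AKT phosphorylates FOXO1 and FOXO3 and so keeps them out of the nucleus. In the fasted liver FOXO1 favours glucose production and transcription of Irs2. In fat and muscle the same signal moves GLUT4, the transporter encoded by Slc2a4, to the cell surface. Trib3 encodes a pseudokinase that binds AKT and is induced by the stress factors ATF4 and CHOP. Much of this control lies in phosphorylation and protein location, which RNA levels do not measure.

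The deposited tables hold 1 comparison of groups each, so the level in each library, the spread within a group and the depth per library were not analysed here. A log2 fold change is given with an approximate 95% interval, which was derived from the authors' likelihood-ratio statistic. The words rose and fell are kept for genes with an authors' adjusted p under 0.05. How long before sampling the mice had last eaten cannot be told apart from diet. In these bulk samples, fewer cells of a type and less RNA per cell cannot be told apart either. All 9 hepatocyte markers were in the liver tables and all 9 white adipocyte markers in the iWAT tables. Marker sums of other cell types differed between the iWAT groups. For 15 skeletal muscle markers, the summed level was approximately 3123 to 3138 CPM (read counts scaled to library size) in AL, 7198 in CR and 436 in TR, from the comparisons with AL. For 9 hepatocyte markers it was approximately 1017 to 1025 CPM in AL, 172 to 198 in CR and 5878 to 6579 in TR. Of these 9, 8 fell on CR against AL, beside 3.78% of all genes lower. On TR against AL 0 of 9 passed, beside 10% of all genes. Of the 9, 1 was at an unadjusted p under 0.05 in the authors' edgeR test on TR. None of the 16 muscle markers was in a liver table.

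The start regions of Irs1 and Irs2 are shown because both adaptor genes hold a core of the insulin response sequence, the motif through which FOXO factors bind insulin-regulated genes, and because Irs2 moved in opposite directions in the 2 tissues. Each line gives the 250 bases before the RefSeq start site, 5′ to 3′ on the strand of the gene, which is the minus strand for both. The build is GRCm38.p6, and the regions are chr1:82291440-82291689 for Irs1 and chr8:11008930-11009179 for Irs2. Capitals mark the E-box CACGTG and the insulin response core CAAAACA, which reads TGTTTTG on the strand shown.
Irs1: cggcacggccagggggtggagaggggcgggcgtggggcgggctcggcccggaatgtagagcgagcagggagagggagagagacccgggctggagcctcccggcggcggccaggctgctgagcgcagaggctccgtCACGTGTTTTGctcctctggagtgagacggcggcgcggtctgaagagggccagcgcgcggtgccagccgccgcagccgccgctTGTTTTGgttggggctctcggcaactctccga
Irs2: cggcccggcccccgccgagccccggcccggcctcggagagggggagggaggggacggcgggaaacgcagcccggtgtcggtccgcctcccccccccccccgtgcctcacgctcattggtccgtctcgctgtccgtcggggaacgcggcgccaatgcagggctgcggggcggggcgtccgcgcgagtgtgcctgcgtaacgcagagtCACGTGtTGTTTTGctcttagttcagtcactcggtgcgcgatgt
In Irs1 the E-box and the nearer core share 2 bases, and a second core lies 32 bases before the start site. In Irs2 there is 1 base between the E-box and the core, which starts 37 bases before the start site. These distances hold for the RefSeq start sites. By the gene position given below, the 5′ end of Irs2 is at 11008458, downstream of the region shown. Windows were matched for 8 of the 10 genes, 13 windows in all, leaving out Insr and Slc2a4. Over both strands, CAAAACA was in 2 of these 13 windows and in 5.56% of 32851 RefSeq windows of the same length. The E-box was in 2 of 13 and in 6.02% of all windows. The FOXO core GTAAACA was in 1 of 13, a window of Akt1, and in 3.17% of all. The composite element TTGCATCA, read by ATF4 with C/EBP partners, was in 0 of 13 and in 0.791% of all. The GC box GGGCGG was in 8 of 13 and in 32.7% of all. A match of letters is a description of the window and not a binding site.

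Of the 60 values that the 10 genes gave over 6 comparisons, 8 passed the threshold, and these belonged to Slc2a4, Foxo3 and Irs2. In the liver on CR, Slc2a4 and Foxo3 rose, 2 of 10 members beside 11.2% of all 12636 genes tested. On TR, Slc2a4, Foxo3 and Irs2 rose in the liver, 3 of 10 beside 18.9% of 12691 genes. By direction, 5.79% of liver genes were higher and 5.37% lower on CR, and 9.35% were higher and 9.54% lower on TR. In iWAT on CR, Slc2a4 rose, 1 of 10 beside 7.3% of 15295 genes, of which 3.52% of genes were higher and 3.78% lower. On TR in iWAT, Slc2a4 rose and Irs2 fell, 2 of 10 beside 10% of 15356 genes, with 4.76% higher and 5.24% lower. The shares called among the members were thus near those of all genes, and no member but these 3 passed the threshold in any table. The median log2 fold change of the members was 0.16 on CR and 0.28 on TR in liver and 0.04 and -0.04 in iWAT, where that of all genes lay between -0.0381 and 0.0244 over the 6 gene tables.

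**Figure D1:**
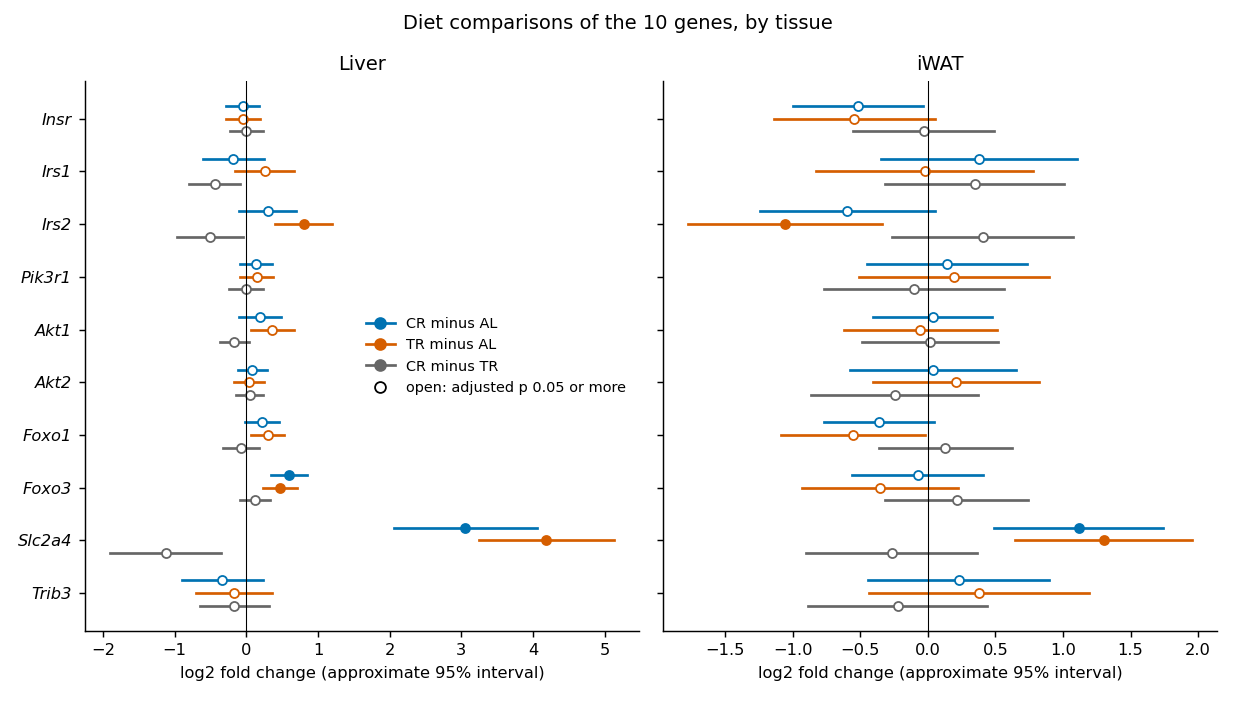
Log2 fold changes of the 10 genes (rows) in liver and iWAT, with approximate 95% intervals as lines, for CR minus AL, TR minus AL and CR minus TR. The panels have different horizontal scales. Filled points have an adjusted p under 0.05 and are those of Slc2a4 and Foxo3 in liver on both diets, Irs2 on TR in both tissues with opposite signs, and Slc2a4 in iWAT on both diets.

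Approximate group levels were obtained by splitting the mean CPM of each table by its fold change, which gives 2 estimates for each group. They differed by at most 1.10-fold in liver and 1.15-fold in iWAT. Per kilobase of transcript, Akt2 had the highest level of the 10 in both tissues, 28.8 CPM per kilobase in liver and 207 in iWAT, as the mean of the CR and AL groups in tables normalized separately. Liver levels then ran down from Akt1 and Pik3r1 (16.3 and 16.1 CPM per kilobase) through Insr (12.6), Foxo3 (4.71), Foxo1 (3.13), Irs1 (1.40), Irs2 (0.901) and Trib3 (0.761) to Slc2a4 at 0.291 CPM per kilobase. In iWAT Slc2a4 came second, at 162 CPM per kilobase, followed by Akt1 (46.9), Pik3r1 (35.4), Insr (11.5), Foxo1 (10.4), Trib3 (6.07), Foxo3 (4.04), Irs2 (3.49) and Irs1 (1.82). The order was the same in the tables of TR and AL of each tissue. Whether neighbours in this order differ beyond the spread of the libraries was not tested.

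**Figure D2:**
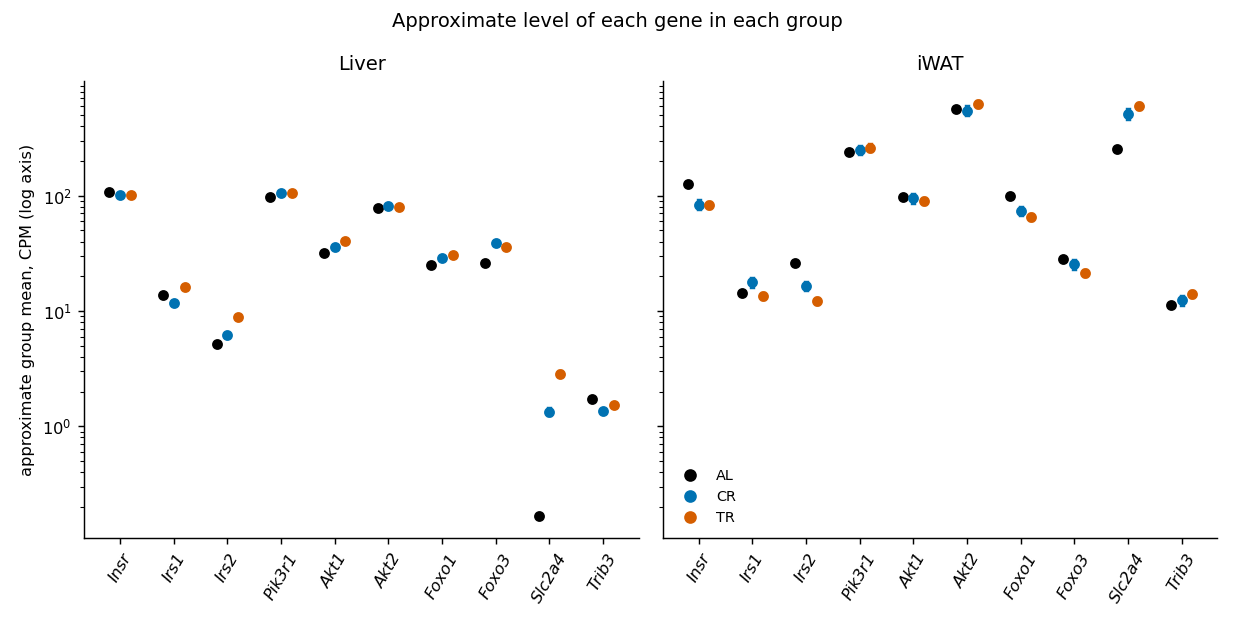
Approximate group mean of each gene in CPM (log axis) for AL, CR and TR in liver and iWAT, where points are the mean of 2 estimates and bars join them. Slc2a4 in liver runs from 0.166 CPM in AL to 2.87 CPM in TR, and it lies between 252 and 594 CPM in iWAT.

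Insr, the receptor gene (ENSMUSG00000005534, GRCm38 chromosome 8 from 3122061 to 3279617, minus strand), did not pass the threshold in any comparison. Its approximate liver level was 107 CPM in AL, 101 in CR and 102 in TR. By the authors' deposited table, the liver log2 fold change was -0.05 (95% interval -0.28 to 0.18) on CR and -0.05 (-0.29 to 0.19) on TR. These intervals hold the change in receptor RNA within about 0.29 log2 units of no change. In iWAT the level was 127 CPM in AL, 83.7 in CR and 83.3 in TR, lower in both diet groups by similar amounts. The authors' deposited table gave -0.52 (-0.996 to -0.04, adjusted p = 0.207) on CR and -0.54 (-1.14 to 0.06, adjusted p = 0.277) on TR, neither past the threshold. The interval on TR includes no change, and that on CR reaches to -0.04.

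Of the 2 adaptor genes, Irs1 passed the threshold in no comparison and Irs2 passed on TR in both tissues. Irs1 (ENSMUSG00000055980, GRCm38 chromosome 1 from 82233101 to 82291416, minus strand) was at 13.6 CPM in AL liver, 11.8 in CR and 16.0 in TR. Its liver value was -0.18 (-0.61 to 0.24) on CR and 0.26 (-0.15 to 0.66) on TR in the authors' deposited table. Its iWAT level was 14.4 CPM in AL, 17.7 in CR and 13.6 in TR. The authors' deposited table gave 0.38 (-0.34 to 1.10) and -0.02 (-0.82 to 0.78) in iWAT, intervals wide enough to hold a change in either direction. Irs1 overlaps Gm9747 on the opposite strand, which was in all 6 gene tables and passed in none. No source used here gives the strand setting of the counting, so reads of Irs1 and Gm9747 may not be separable.

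Irs2 (ENSMUSG00000038894, GRCm38 chromosome 8 from 10984681 to 11008458, minus strand) is the adaptor that hepatocytes induce in fasting. Its liver level was approximately 5.14 CPM in AL, 6.20 in CR and 8.79 in TR. It rose on TR by 0.80 (0.40 to 1.20, adjusted p = 0.0014), a fold of 1.74, in the authors' deposited table. On CR the value was 0.30 (-0.10 to 0.69, adjusted p = 0.406). In iWAT the order of the groups was turned round, with 26.3 CPM in AL, 16.5 in CR and 12.1 in TR. Irs2 fell on TR in iWAT, with -1.06 (-1.77 to -0.34, adjusted p = 0.042) as given in the authors' deposited table, a level 2.08 times lower. On CR in iWAT it was -0.60 (-1.24 to 0.05, adjusted p = 0.310). Both TR calls were lost when the transcript Irs2-201 was tested among all transcripts, with adjusted p = 0.136 in liver and adjusted p = 0.124 in iWAT, at log2 fold changes of 0.80 and -1.06. In iWAT the 6 macrophage markers summed to approximately 1149 to 1166 CPM in AL, 758 to 870 in CR and 741 to 802 in TR. Of these, 1 fell on CR and 2 on TR, beside 3.78% and 5.24% of all genes lower. The 6 progenitor and fibroblast markers summed to 3201 to 3226, 1835 to 2093 and 1680 to 1820 CPM, also with 1 and 2 lower, beside the same shares. Their part in the lower iWAT levels of Irs2, Insr and Foxo1 was not tested.

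None of Pik3r1, Akt1 and Akt2 passed the threshold, and all had narrow intervals in liver. Pik3r1 (ENSMUSG00000041417, GRCm38 chromosome 13 from 101680563 to 101768217, minus strand) was at 96.7, 104 and 105 CPM in AL, CR and TR liver. The authors' deposited table gave 0.14 (-0.09 to 0.36) on CR and 0.14 (-0.08 to 0.37) on TR. In iWAT it was at 239, 249 and 261 CPM, with 0.14 (-0.45 to 0.73) and 0.20 (-0.51 to 0.90) in the authors' deposited table. Liver Akt2 (ENSMUSG00000004056, GRCm38 chromosome 7 from 27591552 to 27640826, plus strand), the AKT form most tied to glucose handling, stood at 78.6, 81.7 and 79.5 CPM. Its values were 0.08 (-0.12 to 0.29) and 0.04 (-0.17 to 0.25) in the authors' deposited table. In iWAT Akt2 was at 567, 547 and 627 CPM, with 0.04 (-0.57 to 0.65) on CR and 0.21 (-0.41 to 0.82) on TR in the authors' deposited table. Akt1 (ENSMUSG00000001729, GRCm38 chromosome 12 from 112653821 to 112674884, minus strand) came nearest to the threshold of the 3. It was at 31.8, 35.7 and 40.2 CPM in AL, CR and TR liver, and the authors' deposited table gave 0.19 (-0.10 to 0.49) on CR and 0.36 (0.06 to 0.66, adjusted p = 0.081) on TR. In iWAT Akt1 was at 98.1, 94.5 and 90.4 CPM, with 0.04 (-0.40 to 0.47) and -0.05 (-0.62 to 0.51) in the authors' deposited table.

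Foxo3 (ENSMUSG00000048756, GRCm38 chromosome 10 from 42181841 to 42276755, minus strand), a FOXO factor known for roles in autophagy and stress resistance, rose in the liver on both diets. Its level was approximately 26.3 CPM in AL, 38.9 in CR and 35.8 in TR, so both diet groups stood above AL and close to each other. The authors' deposited table gave 0.59 (0.34 to 0.84, adjusted p = 1.4e-04) on CR, a fold of 1.51, and 0.47 (0.23 to 0.71, adjusted p = 0.0013) on TR, a fold of 1.39. The 9 hepatocyte markers of the same liver tables had medians of 0.20 and 0.21. On each diet 2 of 9 rose, beside 5.79% of all genes higher on CR and 9.35% on TR. In iWAT Foxo3 was at 28.4, 25.4 and 21.3 CPM, with -0.08 (-0.56 to 0.41) and -0.35 (-0.93 to 0.22) in the authors' deposited table, not past the threshold. Foxo1 (ENSMUSG00000044167, GRCm38 chromosome 3 from 52268336 to 52353221, plus strand), the main FOXO factor of hepatic glucose production, had liver levels of 25.1, 28.8 and 30.4 CPM. Its liver values were 0.22 (-0.02 to 0.46, adjusted p = 0.267) on CR and 0.30 (0.06 to 0.53, adjusted p = 0.062) on TR as given in the authors' deposited table, not past the threshold. In iWAT Foxo1 was at 100.1 CPM in AL, 73.6 in CR and 65.3 in TR. The authors' deposited table gave -0.36 (-0.77 to 0.05, adjusted p = 0.336) and -0.55 (-1.08 to -0.02, adjusted p = 0.198), signs opposite to those in liver. Foxo4, another FOXO factor, had liver values of -0.01 on CR and 0.12 on TR in the authors' deposited table and did not pass in either.

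Slc2a4 (ENSMUSG00000018566, GRCm38 chromosome 11 from 69942539 to 69948188, minus strand) encodes GLUT4, which fat, heart and skeletal muscle use for insulin-stimulated glucose uptake and which hepatocytes make little of. It gave the largest changes of the 10 in both tissues on both diets. In the liver its level was approximately 0.166 CPM in AL, 1.34 in CR and 2.87 in TR, against 252 CPM in AL iWAT, from tables normalized separately. It rose in the liver by 3.05 (2.05 to 4.05, adjusted p = 1.7e-07) on CR and 4.19 (3.25 to 5.13, adjusted p = 6.8e-16) on TR as given in the authors' deposited table. These ranked ninth on CR and seventh on TR among the increases of all liver genes. With AL liver so near 0, the fitted fold depends on the prior count of the model, which no source used here gives. The AL level, -2.59 on the log2 scale, lay below the lowest log2 mean CPM kept in these comparisons (-1.20 on CR and -1.23 on TR). Slc2a4 may thus have passed the filter only through the CR and TR libraries, where it is high, which favours a large increase and a high rank. A lower mean level than that of Slc2a4 was found in 1.24% of genes in the CR table and 10.6% in the TR table.

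The liver rise of Slc2a4 was set beside the markers of cells that make GLUT4. None of the 16 muscle markers was in a liver table, and among the white adipocyte markers Adipoq, Plin1, Lep and Retn were absent from them as well. The 5 white adipocyte markers measured in liver had a summed level of approximately 46.9 to 47.1 CPM in AL, 32.6 in CR and 36.1 in TR, lower in both diet groups than in AL and higher in TR than in CR. Cidec, Cfd and Pparg fell on both diets and Lipe rose on TR. That is 3 of 5 on CR, beside 11.2% of all genes, and 4 of 5 on TR, beside 18.9%. Of the brown adipocyte markers, 3 of 7 were measured in liver, without Ucp1 or Cidea. The only one of them called was Elovl3, which rose on CR and fell on TR, 1 of 3 on each diet beside the same shares. The part of adipocytes in the liver rise of Slc2a4 was not tested.

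In iWAT the level of Slc2a4 was approximately 252 CPM in AL, 511 in CR and 594 in TR. It rose by 1.12 (0.49 to 1.74, adjusted p = 0.011), a fold of 2.17, on CR and by 1.30 (0.64 to 1.96, adjusted p = 0.0029), a fold of 2.46, on TR in the authors' deposited table. Skeletal muscle markers, genes of a tissue that also makes GLUT4, had opposite signs on the 2 diets. Their median log2 fold change was 1.22 on CR. There 0 of 15 were called by the authors' edgeR test, beside 7.3% of all genes, and 0 were at an unadjusted p under 0.05. On TR the median was -2.84, with 15 of 15 at an unadjusted p under 0.05 in that test. Of these, 5 fell (Acta1, Mb, Myh1, Myh2 and Mybpc1), beside 5.24% of all genes lower on TR. The muscle marker sum was lowest in TR and highest in CR, and Slc2a4 rose on both diets. The part of muscle in the Slc2a4 result was not tested. None of the 9 white adipocyte markers passed on CR, beside 7.3% of all genes (1 at an unadjusted p under 0.05 in the authors' edgeR test). On TR Fabp4 and Retn rose and Lep fell, 3 of 9 beside 10% of all genes. The medians were -0.15 on CR and 0.09 on TR. Of 7 brown and beige adipocyte markers, 6 rose on both diets, beside 3.52% of all genes higher on CR and 4.76% on TR. The 7 markers had medians of 3.07 and 2.88. Their summed levels were approximately 52.4 to 53.2 CPM in AL, 464 to 538 in CR and 441 to 478 in TR. The part of these cells in the Slc2a4 result was not tested.

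**Figure D3:**
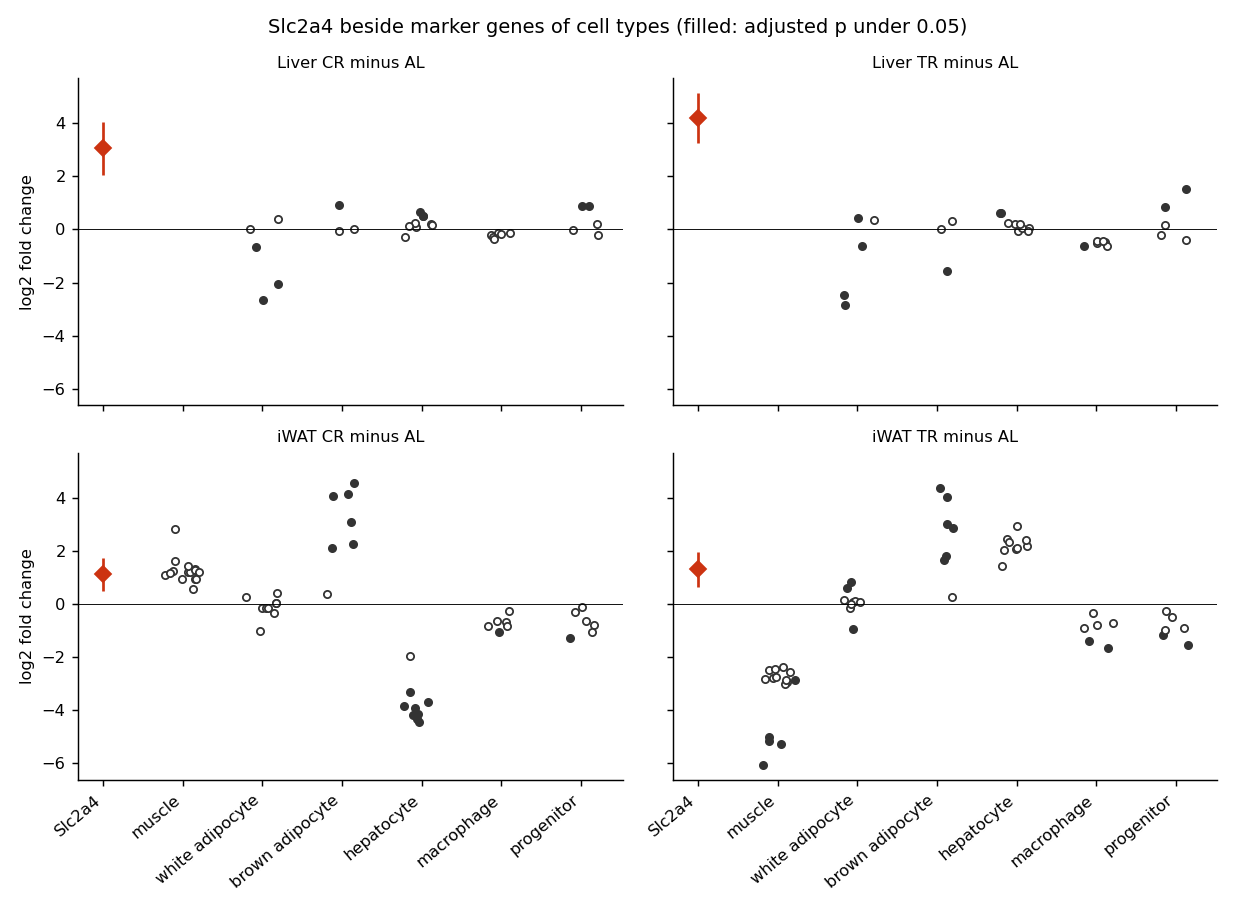
Log2 fold change against AL of Slc2a4 (diamond, with its approximate 95% interval) beside the marker genes of 6 cell types (circles, filled where the adjusted p was under 0.05), for each tissue and diet. Muscle markers are absent from liver, and in iWAT they lie above 0 on CR and below 0 on TR. Slc2a4 is above 0 in all 4 panels.

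By its pattern over the 6 comparisons, Slc2a4 lay nearest to Pnpla3, Thrsp and Srebf1 among 8658 genes whose log2 mean CPM reached 2 in every table. The Euclidean distances over the 6 log2 fold changes were 2.31, 2.75 and 2.82. These comparisons share their AL groups within a tissue. Pnpla3, a lipase-family gene, had 4.76 and 4.61 in liver and 0.67 and 0.70 in iWAT on CR and TR as given in the authors' deposited table, where the iWAT values did not pass. Thrsp, a lipogenic gene, rose in all 4, by 3.42, 3.16, 2.47 and 2.89 in the authors' deposited table. Srebf1, which encodes the lipogenic factor SREBP1, rose in liver by 1.69 and 1.94, and its iWAT values of 0.82 and 0.88 in the authors' deposited table did not pass. For CR minus TR in liver, Pnpla3, Thrsp and Srebf1 had 0.16, 0.26 and -0.25, beside -1.13 for Slc2a4. In liver Slc2a4 itself did not reach the level set for the compared genes, so no gene as low in liver could be among the nearest. Its liver values, and so these distances, depend on the unknown prior count and on the filter described above.

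Trib3 (ENSMUSG00000032715, GRCm38 chromosome 2 from 152337422 to 152344032, minus strand) passed in no comparison. It was at 1.73, 1.35 and 1.51 CPM in AL, CR and TR liver, with -0.33 (-0.90 to 0.23) and -0.17 (-0.71 to 0.36) in the authors' deposited table. Its iWAT level was higher, at 11.3, 12.4 and 14.0 CPM, and the authors' deposited table gave 0.23 (-0.44 to 0.90) and 0.38 (-0.44 to 1.20). All 4 intervals include 0.

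CR and TR were then set directly against each other. None of the 10 members passed, beside 0.469% of 12593 liver genes and 0.918% of 14699 iWAT genes. At an unadjusted p under 0.05 in the authors' edgeR test there were 3 members in liver and 0 in iWAT. The 3 were all lower in CR than in TR. Slc2a4 had -1.13 (-1.90 to -0.35, adjusted p = 0.198), Irs2 -0.50 (-0.96 to -0.04, adjusted p = 0.423) and Irs1 -0.44 (-0.80 to -0.08, adjusted p = 0.321) as given in the authors' deposited table. For Foxo3 the direct difference in liver was 0.12 (-0.08 to 0.33). In iWAT the member values ran from -0.26 for Slc2a4 to 0.41 for Irs2 in the authors' deposited table, with intervals that reached from -0.90 to 1.08. A missed threshold does not show that the diets acted alike. The interval for liver Slc2a4 leaves out equal levels before adjustment, and those for Irs1 and Irs2 do so narrowly.

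Whether a diet acted differently in the 2 tissues was tested by subtracting the liver from the iWAT log2 fold change, with an approximate 2-sided normal test and Benjamini-Hochberg adjustment over all genes in both tables. On TR, 2 of the 10 members differed, beside 7.81% of 12201 genes. Irs2 had a difference, iWAT minus liver, of -1.85 (-2.67 to -1.03, adjusted p = 5.6e-04), since it rose in liver and fell in iWAT. For Slc2a4 it was -2.89 (-4.03 to -1.74, adjusted p = 8.1e-05), since its fitted log2 fold change was larger in liver. The absolute gain of Slc2a4 was nevertheless larger in iWAT, from 252 to 594 CPM against 0.166 to 2.87 CPM in liver. On CR, 1 of the 10 differed, beside 6.73% of 12012 genes. That was Slc2a4, at -1.94 (-3.11 to -0.76, adjusted p = 0.026), a call that was lost when the tissues of a mouse were taken to vary oppositely (correlation -0.3, adjusted p = 0.082). Both Slc2a4 differences use its fitted liver folds, which depend on the unknown prior count. Slc2a4 may also have passed the liver filter only through the CR and TR libraries, which favours a large difference. The FOXO genes had negative differences on both diets and did not pass. Foxo1 had -0.58 on CR (adjusted p = 0.138) and -0.85 on TR (adjusted p = 0.053). Foxo3 had -0.67 (adjusted p = 0.140) and -0.82 (adjusted p = 0.091). With a correlation of 0.3, Foxo1 passed on both diets (adjusted p = 0.045 and 0.015) and Foxo3 on TR (adjusted p = 0.033).

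**Figure D4:**
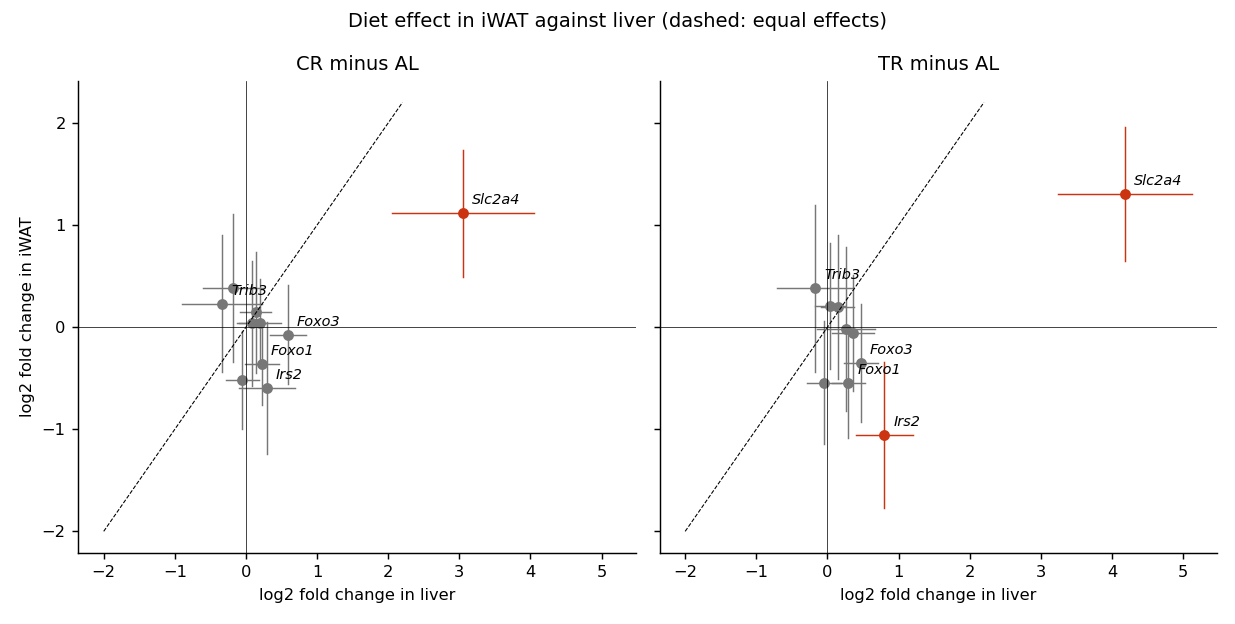
Log2 fold change in iWAT (vertical) against liver (horizontal) for the 10 genes on CR and TR, with approximate 95% intervals; the dashed line marks equal effects. Red points are those whose tissue difference had an adjusted p under 0.05, Slc2a4 on both diets and Irs2 on TR.

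The transcript tables held 31 transcripts of the 10 genes. Of these, 2 of 22 passed in liver on CR, beside 2.66% of all transcripts tested, and 3 of 22 on TR, beside 3.94%. In iWAT 1 of 27 passed on CR, beside 2.45%, and 2 of 28 on TR, beside 3.55%. Between CR and TR none passed in liver (0 of 21, with 3 at an unadjusted p under 0.05 in the authors' edgeR test, beside 0.323%) or iWAT (0 of 27, with 0, beside 0.413%). For Foxo3 the transcript was Foxo3-203 (6848 bases), its only one in the tables, which rose in liver by 0.58 (adjusted p = 0.016) on CR and 0.48 (adjusted p = 0.045) on TR as given in the authors' deposited table. Slc2a4-201, a protein-coding transcript of 2524 bases, was the one Slc2a4 form in the liver tables and rose there by 3.36 (adjusted p = 0.0085) and 4.41 (adjusted p = 8.5e-08) as given in the authors' deposited table. In iWAT 6 forms were listed, and Slc2a4-201 made up 89.7% of their summed mean CPM in the CR table and 90.3% in the TR table. It rose in iWAT by 1.10 (adjusted p = 0.044) on CR and 1.34 (adjusted p = 0.0068) on TR as given in the authors' deposited table. The retained-intron form Slc2a4-207, 7.66% and 7.28% of the sum, had 1.01 (adjusted p = 0.106) on CR and rose by 1.13 (adjusted p = 0.031) on TR as given in the authors' deposited table.

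For Akt2 the minor protein-coding form Akt2-207 fell in liver on TR, with -7.38 (-11.92 to -2.83, adjusted p = 0.040) as given in the authors' deposited table. Its mean was 0.476 CPM, 0.598% of the Akt2 sum, so the fitted fold rests on very few reads. The CR value was -7.28 (adjusted p = 0.064) as given in the authors' deposited table. Akt2-207 was listed in both liver comparisons with AL but not in that of CR with TR. It may thus have passed the filter only through the AL libraries, where it is high, which favours a large decrease. In iWAT Akt2-207 had -0.18 on CR and 0.47 on TR, and the dominant form Akt2-201 passed in neither tissue.

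The rest of the pathway was read from a list of 42 further genes. In liver 38 were measured. On CR none of these passed (0 of 38 beside the 11.2% of all genes given above, with 8 at an unadjusted p under 0.05 in the authors' edgeR test), and their median was -0.07. On TR 8 fell and 1 rose, 9 of 38 beside 18.9%, with a median of -0.05. Those that fell were the adaptor Shc1, the kinases Pdpk1, Mtor and Gsk3b, the mTOR complex 2 subunit Mapkap1, the mTOR regulators Tsc1 and Rheb, and Tbc1d1, which restrains GLUT4 vesicles. Pik3cb, a catalytic subunit of PI3K, rose by 0.41. In the authors' deposited table Mtor had -0.41, Shc1 -0.36 and Mapkap1 -0.36 on TR. In iWAT 41 were measured. On CR none passed (0 of 41 beside 7.3% of all genes, with 9 at an unadjusted p under 0.05 in the authors' edgeR test). On TR 2 of 41 passed, beside 10%. Sh2b2, an adaptor of the receptor, rose on TR by 1.06, and Igf1r, the receptor for IGF1, had -1.26 (adjusted p = 0.013) as given in the authors' deposited table.

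**Figure D5:**
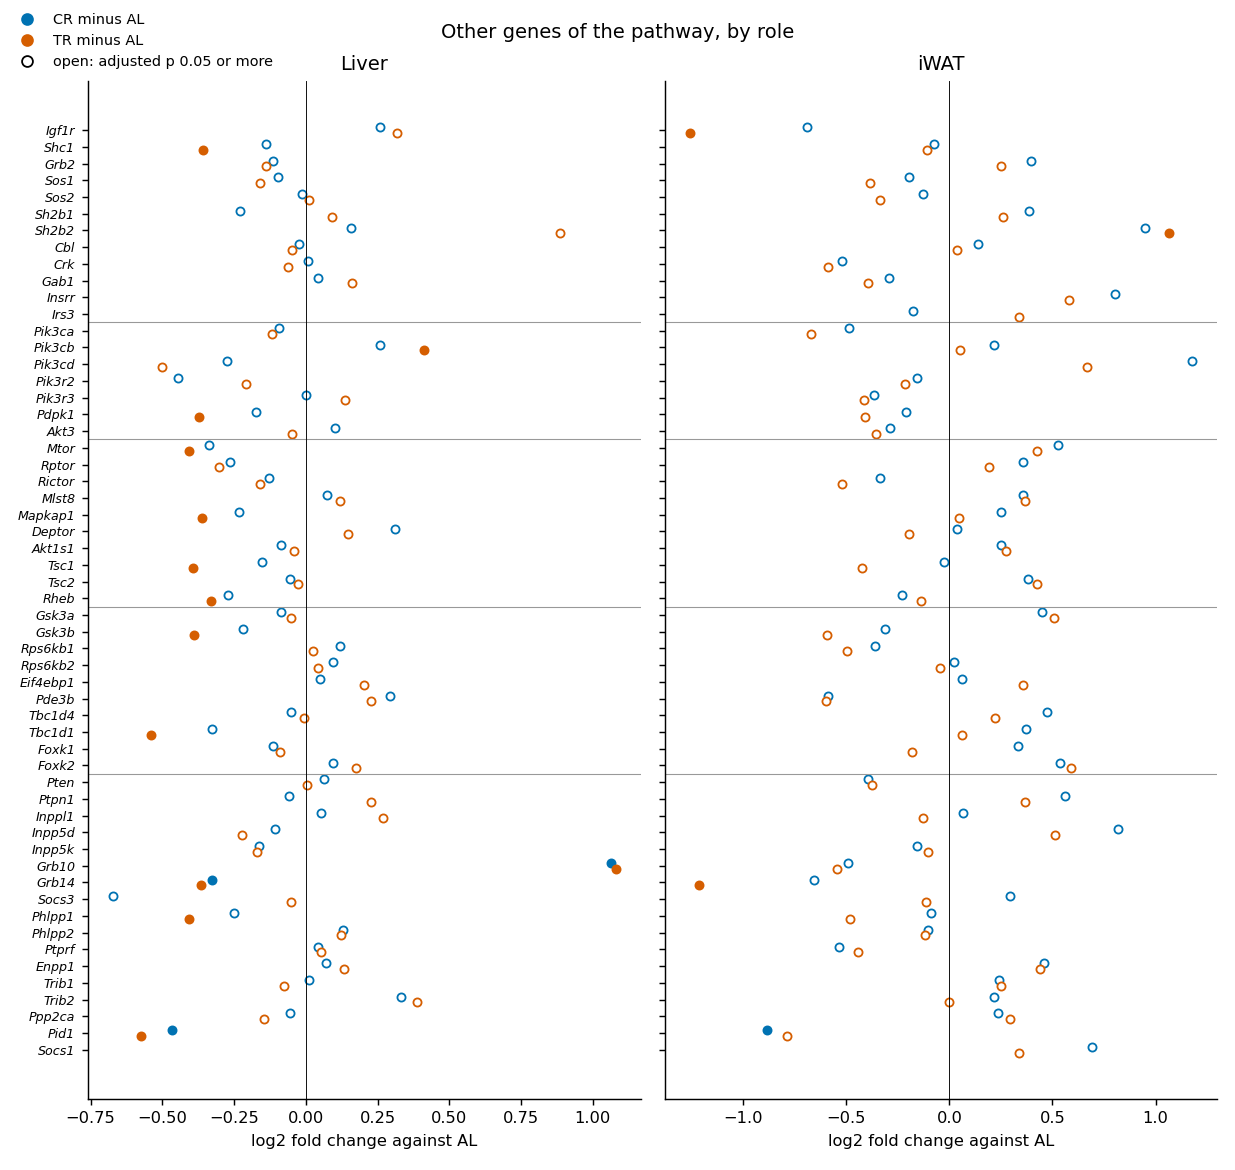
Log2 fold change against AL of the other pathway genes and inhibitors (rows, grouped from top to bottom as receptors and adaptors, PI3K and its kinases, mTOR complexes and TSC, effectors downstream of AKT, and inhibitors) in liver and iWAT, on CR and TR. Panels differ in scale, and filled points, with an adjusted p under 0.05, are fewest in iWAT on CR, where Pid1 is the only one.

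Of 17 genes that restrain the insulin signal, 16 were measured in liver. On CR 1 rose and 2 fell, beside 11.2% of all genes called, and on TR 1 rose and 3 fell, beside 18.9%, and the median was -0.02 on both. Grb10, an adaptor that inhibits the receptor, rose by 1.06 on CR (adjusted p = 2.9e-06) and 1.08 on TR (adjusted p = 1.0e-04) as given in the authors' deposited table. Its relative Grb14 had -0.33 (adjusted p = 0.027) and -0.37 (adjusted p = 0.006), and Pid1 had -0.47 (adjusted p = 4.3e-04) and -0.57 (adjusted p = 1.7e-06) as given in the authors' deposited table, all lower. Phlpp1, an AKT phosphatase, was lower on TR, at -0.41 in the authors' deposited table. In iWAT Pid1 was the 1 of 17 that fell on CR (-0.89, adjusted p = 0.020) and Grb14 the 1 of 17 on TR (-1.21, adjusted p = 9.5e-04) as given in the authors' deposited table, beside 7.3% and 10% of all genes called.

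Among 27 genes described as FOXO targets, G6pc and Pdk4 rose and Gabarapl1 fell in liver on both diets. On CR, of 26 measured, 2 rose and 2 fell (median 0.04), beside 11.2% of all genes called. On TR, of 27, 3 rose and 2 fell (median -0.03), beside 18.9%, so the shares were close to those of all genes. G6pc, the last enzyme of glucose production, rose by 1.84 and 1.82, and Pdk4, which blocks pyruvate oxidation, by 1.35 and 1.28 on CR and TR as given in the authors' deposited table. Gabarapl1, an autophagy gene, had -0.73 and -0.59 and fell on both diets, Pnpla2, a triglyceride lipase gene, fell on CR by 0.52, and Sesn1, a stress gene, fell on TR by 0.41 in the authors' deposited table. Pck1 and Igfbp1, hepatic genes widely used as FOXO1 readouts, did not pass in liver. Klf15 rose on TR by 0.46 in the authors' deposited table. In iWAT Sod2, the mitochondrial superoxide dismutase, rose by 0.82 on CR and 1.04 on TR, and on TR Pck1 (-1.09), Cited2 (-1.09) and Fbxo32 (-2.32) fell, in the authors' deposited table. In iWAT 1 of 25 measured passed on CR, beside 7.3% of all genes, and 4 of 26 on TR, beside 10%. The medians in iWAT were -0.25 and -0.19. Fbxo32 is a ubiquitin ligase gene of muscle, and the muscle markers were lowest in TR iWAT. The part of muscle in the lower Fbxo32 level was not tested. Between CR and TR, Gadd45b in liver (-1.39, adjusted p = 0.038) and Apoc3, an apolipoprotein gene of hepatocytes, in iWAT (-3.99, adjusted p = 0.011) were lower on CR as given in the authors' deposited table. All 9 hepatocyte markers were lower on CR than on TR in iWAT as well, beside 0.918% of all genes called, with a median of -6.02. The part of hepatocytes in the Apoc3 difference was not tested.

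Around Trib3, 20 genes of the ATF4 and CHOP response were read, of which 14 were measured in liver. On CR 3 rose and 2 fell, beside 5.79% of all genes higher and 5.37% lower, and on TR 4 rose and 3 fell, beside 9.35% and 9.54%, with medians of 0.11 and -0.06. Atf3 rose by 1.54 and 1.65 and Cebpb by 0.58 and 0.77, while Atf5 had -1.20 and -1.19 and Fgf21, a fasting-induced hormone gene, -2.06 and -1.47 on CR and TR as given in the authors' deposited table. The remaining calls were Ddit4, higher on both diets, and Slc3a2, higher, and Asns, lower, on TR. In iWAT all 20 were measured, and 1 passed on CR, beside 7.3% of all genes, and 2 on TR, beside 10%. Stc2 fell there on both diets, with -1.09 and -1.07, and Asns, the asparagine synthetase gene, rose on TR by 1.07 in the authors' deposited table. Atf4 and Ddit3, which encode ATF4 and CHOP, passed in no comparison with AL.

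Around Slc2a4, 13 genes of GLUT4 vesicles and their fusion and 10 transcription factors described at the Slc2a4 promoter were measured in both tissues. The vesicle genes had medians of -0.14 on CR and -0.02 on TR in liver and -0.09 and -0.28 in iWAT, and the factors 0.05 and 0.19 in liver and 0.05 and -0.08 in iWAT. In liver 1 of 13 vesicle genes passed on CR, beside 11.2% of all genes, and 2 of 13 on TR, beside 18.9%. Sort1, a sorting receptor of GLUT4 vesicles, fell there on both diets, with -1.24 (adjusted p = 4.8e-05) and -1.67 (adjusted p = 7.9e-16), and the fusion protein gene Stx4a fell on TR by 0.37 in the authors' deposited table. In iWAT Stxbp3, a partner of syntaxin 4, had -0.93 and -1.12 and fell on both diets in the authors' deposited table, and none of the other 12 vesicle genes passed. That is 1 of 13 on each diet, beside 7.3% and 10% of all genes. Among the factors, Srebf1 rose in liver as given above, Mlxipl, which encodes the glucose-responsive factor ChREBP, rose by 0.63 and 0.69, and Pparg had -0.66 and -0.61 and fell on both diets in the authors' deposited table. Klf15 was the only further call, on TR. In liver 3 of the 10 factors thus passed on CR, beside 11.2% of all genes, and 4 on TR, beside 18.9%. In iWAT 0 of the 10 factors passed on either diet by the authors' edgeR test, beside 7.3% and 10% of all genes. At an unadjusted p under 0.05 in that test there were 4 on CR and 3 on TR. Slc2a1, which encodes GLUT1, passed in neither tissue.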

How the data were processed

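Total RNA of 36 libraries was sequenced by the authors, per the labels' protocols, after Trizol extraction and Illumina TruSeq preparation. Per the submitters' processing notes, bcl2fastq 2.20, STAR 2.5.3a, RSEM and the build GRCm38.p5 were used. Per the file headers, the authors compared groups with edgeR generalized linear models; no source used here gives the filter, the normalization or the version. The deposited files, 6 for genes and 6 for transcripts, were taken unchanged. Their log2 values are the authors' log2 fold change and log2 mean CPM, per the file headers. Their score is the authors' likelihood-ratio statistic, per the file headers, and their p-value columns hold the deposited p-value and FDR. An FDR under 0.05 (Benjamini-Hochberg, 2-sided, over all features of a table) was the test. Depth per library is unknown. Libraries of 16 mice share an animal across tissues, and 1 animal number shared by CR and TR labels was counted as different mice.

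The design named a test of counts should the tables hold them; they hold comparisons. P-values recomputed from the statistic lay within 5.0e-06 of those deposited, and recomputed adjustment matched the FDR to within 0.00626. The approximate standard error divided the absolute log2 fold change by the root of the statistic. The calculation of the tissue difference was first run on simulated data with large planted effects and tissues drawn independently. That run does not check the correlation between tissues of a mouse or the approximate standard error. Python 3.11.15 with scipy 1.17.1 and pandas 2.3.3 was used, and positions and lengths came from GENCODE M21. The members and lists were chosen with earlier results of these data known. A gene of the pathway list is not reported here and is in no count of that list. Tbc1d4, Klf15, Pik3ca and Rictor are each in 2 lists. Named beside the members are, per list and tissue, up to 4 genes with the smallest FDR against AL and any gene called between CR and TR; others named where a count was small, and the markers, were chosen after their values were seen. Thresholds, filters, centring, dominant transcripts and tissue correlations were tried as alternatives.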

Additional observations from a re-analysis of the deposited data

Results flagged for a closer look

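Among the 10 genes, the diet effect differed between the tissues in 3 cases by the approximate normal test of the iWAT effect minus the liver effect, Benjamini-Hochberg adjusted over all genes in both tables. For Irs2 on TR the difference was -1.85 (adjusted p = 5.6e-04). For Slc2a4 it was -1.94 on CR (adjusted p = 0.026) and -2.89 on TR (adjusted p = 8.1e-05). The CR call was lost in the same test with a correlation of -0.3 between the tissues of a mouse (adjusted p = 0.082). Slc2a4 rose in both tissues, and its AL level in liver was 0.166 CPM. Its fitted liver folds, and so both its differences, depend on the unknown prior count. It may also have passed the liver filter only through the CR and TR libraries, which favours a large difference.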

How the results depend on the processing

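No paired analysis was possible because the tables hold comparisons of groups and no values per library, and leaving out a library was not run for the same reason. Of the counts of members called, 35 settings kept the count within 1.5 times. Liver CR fell from 2 to 1 when adjustment covered only genes whose log2 mean CPM reached 1, which leaves out Slc2a4. At a threshold of 0.10 liver TR gave 5, adding Akt1 and Foxo1. At 0.01 iWAT CR gave 0 and iWAT TR gave 1. With the dominant transcript of each gene iWAT TR gave 1, without Irs2. The tissue difference on CR gave 2 at a correlation of 0.3 and 0 at -0.3, and that on TR gave 4 at 0.3. Of single genes, 432 settings kept direction and side of the threshold. Values that changed sign were uncalled: Pik3r1 in liver CR minus TR (0.0021) and Akt1 in iWAT CR minus AL (-0.043) with the dominant transcript, and Irs1 in iWAT TR minus AL (0.017) after centring on the median of all genes. The cause was not tested. Median approximate standard errors were 0.142 to 0.153 in liver and 0.318 to 0.366 in iWAT, so changes in iWAT had to be larger to pass.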
